A study of Mus musculus with 30 samples.

Results

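The 10 genes described here encode proteins that release, store, buffer and pump back the calcium that drives contraction of skeletal muscle: Cacna1s, Ryr1, Jph2, Casq1, Casq2, Atp2a1, Atp2a2, Pln, Sln and Pvalb. They were chosen by symbol from the 56980 genes of the count table, with earlier results of these data known. All 10 passed the filter on low counts that left 16932 genes. RNA came from the soleus, a postural hindlimb muscle, of 30 C57BL/6J mice of both sexes aged 3 to 4 months. All mice carried floxed alleles of both catalytic AMPK subunits, AMPKalpha1 and AMPKalpha2; the mKO mice had lost both in muscle, and the Ctrl mice had no Cre, so that loss of the alleles and presence of Cre cannot be told apart. Each genotype was either ambulatory (AMB) or hindlimb unloaded (HU) for 4 weeks, which gave 8 AMB Ctrl, 7 AMB mKO, 7 HU Ctrl and 8 HU mKO mice. Sex was not balanced: males and females were 3 and 5 in AMB Ctrl, 5 and 2 in AMB mKO, 4 and 3 in HU Ctrl, and 3 and 5 in HU mKO mice. The sources used here do not give the promoter that drives Cre, the time of deletion or the deleted exons. The comparisons ask how 4 weeks without load changed these transcripts, and whether that depended on AMPK.

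In a muscle fibre, the voltage sensor Cacna1s in the transverse tubule opens the release channel Ryr1 of the sarcoplasmic reticulum, and the calcium that leaves is bound inside the store by calsequestrin. The pumps SERCA1 (Atp2a1) and SERCA2 (Atp2a2) return it, under restraint by the small membrane proteins phospholamban (Pln) and sarcolipin (Sln), and parvalbumin (Pvalb) takes up calcium in the cytosol. SERCA1, Casq1 and parvalbumin are known from fast fibres, and SERCA2, Casq2 and phospholamban from slow fibres and heart. Soleus holds many slow fibres, and long unloading is known to move it towards faster fibre types.

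Library totals ran from 12083415 to 20895263 counts. Values below are counts-per-million values (CPM) after TMM normalisation, a scaling by trimmed means. Prkaa2, which encodes AMPKalpha2, was lower in mKO than in Ctrl soleus by 1.89 ± 0.26 on the log2 scale in AMB mice (SE; edgeR adjusted p = 0.000367) and by 1.64 ± 0.24 in HU mice (adjusted p = 0.00193). Prkaa1, which encodes AMPKalpha1, was not called in either (log2 change −0.20, adjusted p = 0.89, and −0.60, adjusted p = 1.0). In AMB mice Prkaa1 was at 36.2 CPM in AMB mKO replicate 2, 8.21 to 17.9 in the other 6 mKO mice and 16.5 to 24.9 in Ctrl mice, and without that library its value was −0.51 ± 0.16 (edgeR adjusted p = 1.0). A single library stood apart. In AMB mKO replicate 2, the slow myosin Myh7 was at 116 CPM against 11721 ± 3569 (SD, n = 6) in the remaining AMB mKO mice, and the adipocyte hormone gene Adipoq was at 903 CPM against 35.5 ± 54.3. The 10 calcium genes lay there between 1.47% (Sln) and 26.2% (Pvalb) of the mean of the other 6 mice. Where a call named below changed without this library, both values are given. Summed over 7 slow fibre markers, the level in the other 29 libraries was 8071 to 34197 CPM, and none of these markers was at 0 in every library.

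In Ctrl mice, unloading left most of these transcripts without a called change, with parvalbumin as the exception. Pvalb rose 2.91-fold, and it was the single called member of 10; over all genes, 1882 of 16932 were called in this comparison, or 11.1%. Here a call, and the words rise and fall, require an adjusted p below 0.05 in edgeR's quasi-likelihood fit, with Benjamini-Hochberg adjustment across the whole set of tested genes. Without AMB mKO replicate 2, whose spread enters the fit of every comparison, Casq2 and Pln were also called, both lower, against 2685 of 17055 genes, or 15.7%. In mKO mice Pvalb rose 2.49-fold, again 1 member of 10, where 1702 genes or 10.1% were called. Without that library Casq2 was the 1 called member, lower, and Pvalb was not called, where 2302 genes or 13.5% were called. The median log2 change over the 10 members was −0.14 in Ctrl and 0.14 in mKO mice, beside 0.028 and −0.035 over all genes tested. The medians without AMB mKO replicate 2 were −0.11 and −0.16, beside 0.032 and 0.034, so that the sign in mKO mice rests on that library.

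**Figure D1:**
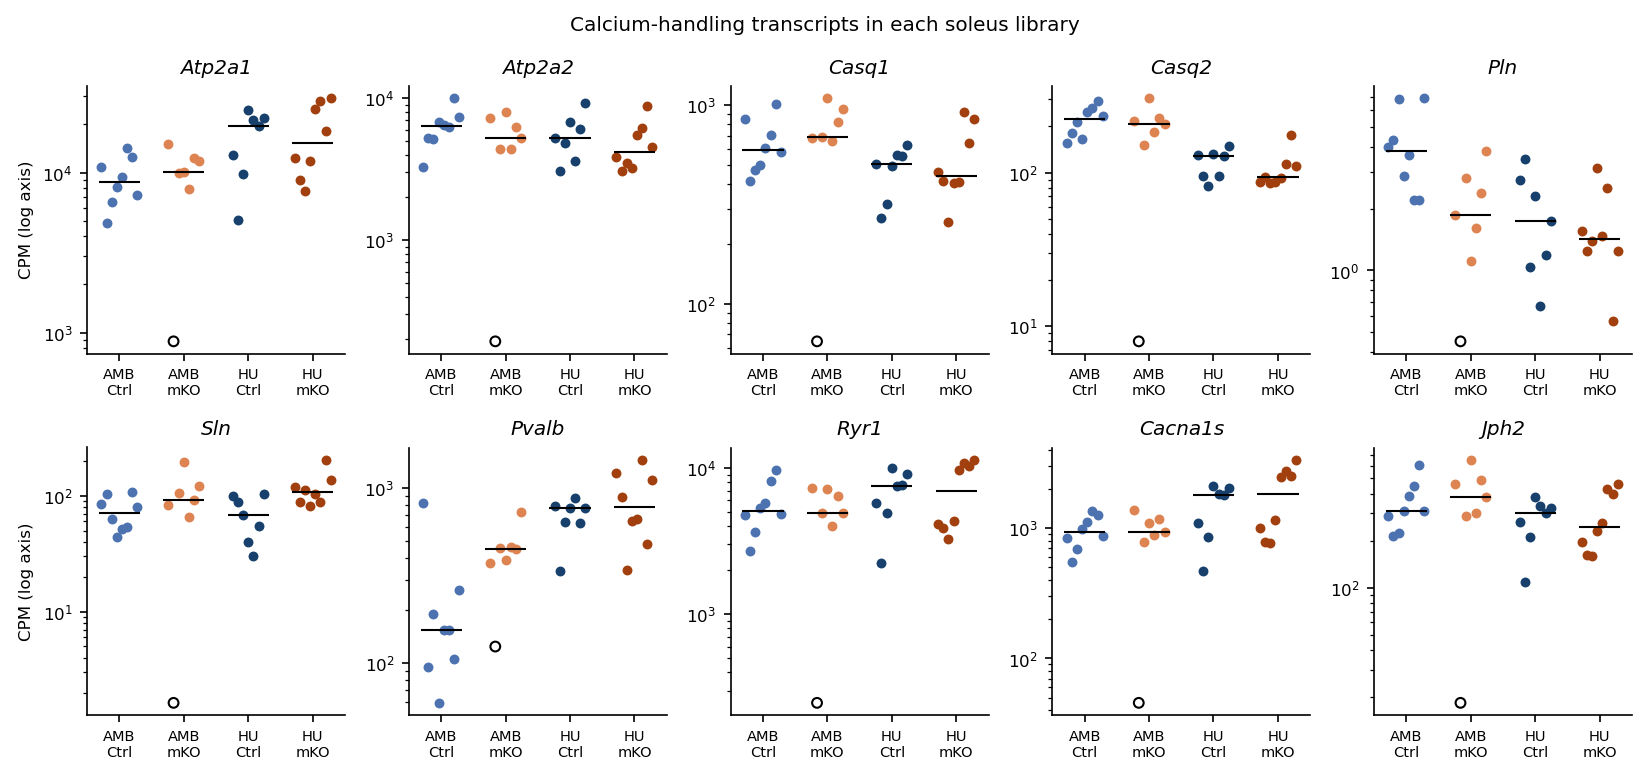
CPM of the 10 transcripts in each of the 30 libraries (log axis), by group; bars are group medians and the open circle is AMB mKO replicate 2. Pvalb is higher and Casq2 lower in most HU libraries than in most AMB libraries, and the open circle lies lowest of its group in every panel.

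In soleus as a whole, fewer fibres of a type and less RNA per fibre cannot be told apart, and this holds for every change given here.

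The cytosolic buffer Pvalb (ENSMUSG00000005716) ran from 59.2 to 825 CPM in AMB Ctrl mice, with a median of 154, and from 336 to 882 with a median of 772 in HU Ctrl mice. Of the 8 AMB Ctrl libraries, 7 were at or below 262 CPM and below every HU Ctrl library, and replicate 1 alone lay within the unloaded range. The log2 change was 1.54 ± 0.39 (edgeR adjusted p = 0.0112), and Pvalb was called in each of the 30 fits that left out 1 library. Without AMB Ctrl replicate 1 it was 2.14, or 4.40-fold (adjusted p = 0.000399). Each sample title closes with a letter (a, b or c) whose meaning the labels do not give. Within letters a, b and c the Ctrl difference was 2.88, 2.06 and 1.17.

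In AMB mKO mice Pvalb ran from 124 to 727 CPM around a median of 451, and without replicate 2 from 373 to 727. In HU mKO mice it ran from 338 to 1455 CPM around 776, and these ranges overlap. The log2 change with unloading was 1.31 ± 0.42 (edgeR adjusted p = 0.0436). This call was lost on leaving out any of 15 libraries: AMB Ctrl replicate 6, AMB mKO replicates 2, 3, 4, 5 and 6, HU Ctrl replicates 1, 2, 4, 5 and 6, or HU mKO replicates 1, 2, 6 and 8. The adjusted p was then 0.0502 to 0.0841, and 0.0731 without AMB mKO replicate 2, where the change was 1.13 ± 0.42. With all libraries and no term for sex, the change was 1.00 and not called (edgeR adjusted p = 0.117). Genotype gave no call: the mKO value in AMB mice was higher by 0.70 ± 0.40 (adjusted p = 0.72), and by 1.58 without AMB Ctrl replicates 1 and 8, the pair with the most Myh4 of that group (adjusted p = 0.29). That pair was also the highest of AMB Ctrl mice in Pvalb itself (825 and 262 CPM), so leaving it out raises this difference by construction.

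**Figure D2:**
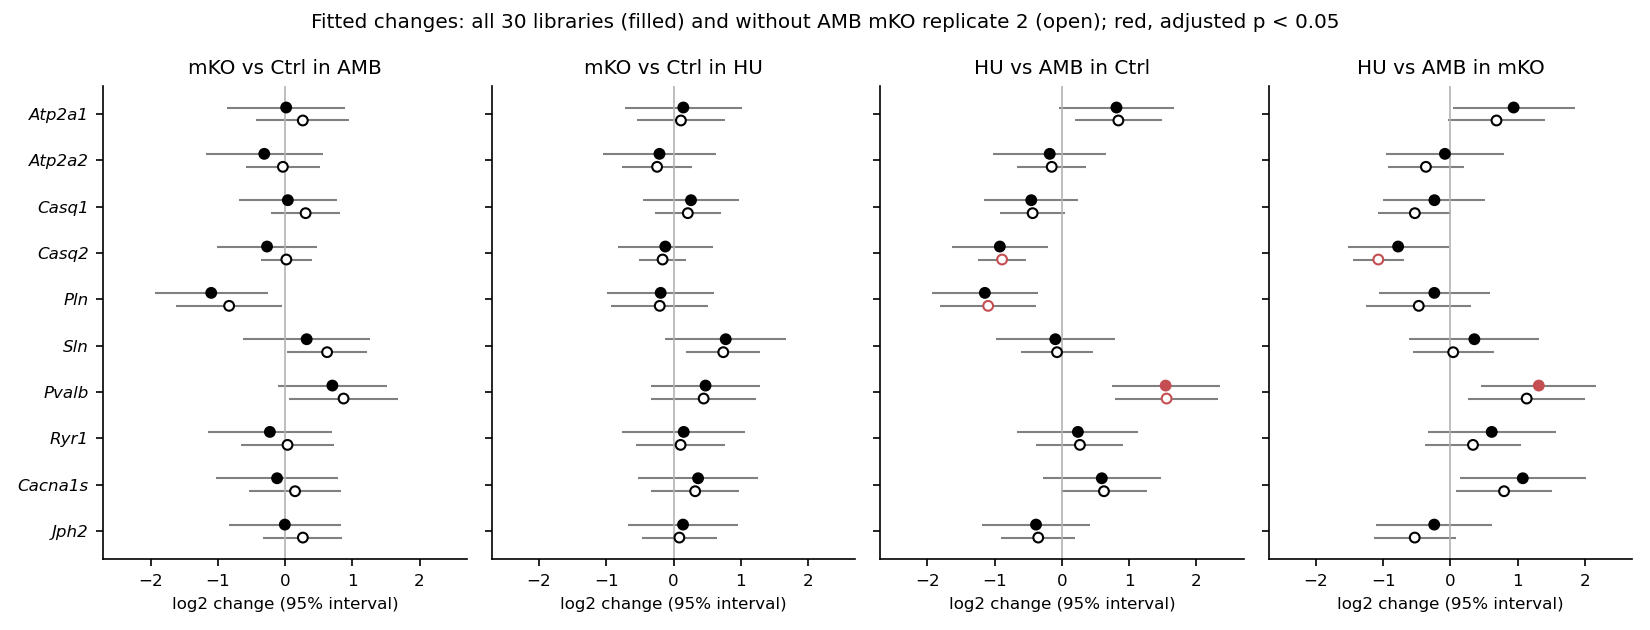
Fitted log2 change of each gene in the 4 comparisons, with its 95% interval, from all 30 libraries (filled) and without AMB mKO replicate 2 (open); red marks an adjusted p below 0.05. The intervals of Casq2 become much narrower without that library, and the genotype comparisons hold no red point.

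Calsequestrin binds calcium within the store. Casq2 (ENSMUSG00000027861), the cardiac and slow-fibre form, ran from 156 to 292 CPM in AMB Ctrl mice (median 223) and from 81.3 to 150 in HU Ctrl mice (median 129). These ranges do not overlap, so that each unloaded Ctrl mouse was below each ambulatory one. The log2 change was −0.92 ± 0.35 (edgeR adjusted p = 0.0836) with all libraries and −0.89 ± 0.17 (adjusted p = 0.000675) without AMB mKO replicate 2, a fall of 1.85-fold. That library is not in either of the groups compared. Leaving it out lowered the standard error from 0.35 to 0.17, and no other single omission gave the call. Over all 30 libraries, the adjusted p of this fall was 0.0459 with DESeq2 and 0.00114 with limma. With only the compared groups in the model it was called (edgeR adjusted p = 0.00138), and with a term for the title letter it was not (edgeR adjusted p = 0.053). Within letters a, b and c the Ctrl difference was −0.98, −0.91 and −0.85.

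In mKO mice Casq2 ran from 150 to 306 CPM in the 6 ambulatory libraries other than replicate 2 (median 213), with 7.96 CPM in that one. In HU mKO mice it ran from 85.5 to 176 CPM (median 93.3), and only replicate 7, at 176, reached the ambulatory range. The log2 change was −0.78 ± 0.37 (edgeR adjusted p = 0.169), and −1.07 ± 0.19 (adjusted p = 0.000384) without replicate 2, a fall of 2.10-fold.

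Casq1 (ENSMUSG00000007122), the main calsequestrin of fast fibres, had medians of 597 CPM in AMB Ctrl and 504 in HU Ctrl mice, with ranges of 414 to 1013 and 271 to 627. It was 687 in AMB mKO and 437 in HU mKO mice. The log2 change with unloading was −0.46 ± 0.34 in Ctrl (edgeR adjusted p = 0.42) and −0.24 ± 0.37 in mKO mice (adjusted p = 0.72), neither called. The ratio of Casq1 to Casq2 within a library had medians of 2.59 in AMB Ctrl, 3.64 in AMB mKO, 3.92 in HU Ctrl and 4.54 in HU mKO mice, given as a description.

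The RefSeq promoters of Casq2 and Pvalb are shown because these genes were called and because, of the 8 members with an entry in the table used, these 2 hold a match to the MEF2 consensus, a site known for muscle transcription. Casq2 was not called in the edgeR fit of all 30 libraries but was without AMB mKO replicate 2. Pln, also called without that library in Ctrl mice, holds no such match. Each sequence is the 250 bases before a transcription start on GRCm38.p6, in the direction of the gene, with the MEF2 match in capitals. Casq2 starts after chr3:102086165-102086414 (plus strand), and the upstream of the 2 Pvalb starts lies beside chr15:78206401-78206650 (minus strand).
Casq2: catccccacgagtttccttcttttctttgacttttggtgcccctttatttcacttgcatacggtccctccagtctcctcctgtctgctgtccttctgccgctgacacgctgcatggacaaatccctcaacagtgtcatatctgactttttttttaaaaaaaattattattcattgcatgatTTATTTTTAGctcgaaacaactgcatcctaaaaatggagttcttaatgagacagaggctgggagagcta
Pvalb: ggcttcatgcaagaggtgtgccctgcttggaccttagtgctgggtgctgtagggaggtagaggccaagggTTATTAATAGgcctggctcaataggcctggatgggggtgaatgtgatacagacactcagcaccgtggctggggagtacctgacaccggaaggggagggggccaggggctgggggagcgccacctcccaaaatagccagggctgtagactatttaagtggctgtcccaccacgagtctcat
The match begins 69 bases before the start in Casq2 and 180 bases before it in Pvalb. The window of the other Pvalb start holds no MEF2 match, and a member is counted here where any of its windows holds a match. On either strand, 2.92% of 32851 promoters of the same length hold such a match. The E-box CANNTG, also searched on both strands, is in the windows of 7 of the 8 members and in 66.2% of all promoters. The NFAT core GGAAA was found for 3 members (55.6% of all promoters), the MCAT motif CATTCC for 1 (12.6%) and the SRF CArG box for 0 (1.47%). These are matches of letters and no measure of binding; Casq2 and Pvalb moved in opposite directions.

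SERCA1 and SERCA2 pump calcium back into the store. Atp2a1 (ENSMUSG00000030730) ran from 4807 to 14297 CPM in AMB Ctrl mice (median 8702) and from 5033 to 24711 in HU Ctrl mice (median 19541). Of the 7 HU Ctrl libraries, the 4 with letters a and b lay between 19541 and 24711 CPM and the 3 with letter c between 5033 and 12804. The log2 change was 0.81 ± 0.42 (edgeR adjusted p = 0.22). In mKO mice the median was 10023 CPM in AMB and 15352 in HU, with a log2 change of 0.94 ± 0.44 (adjusted p = 0.167). In a model with a term for the title letter, the mKO change was 1.15 ± 0.35 and called (adjusted p = 0.0276), while in Ctrl mice it was 0.61 ± 0.34 and not called (adjusted p = 0.23). The difference between these responses was 0.54 ± 0.50 and not called (edgeR adjusted p = 0.83). With the letter term and without AMB mKO replicate 2, a fit chosen after seeing the data, both changes were called. They were 0.70 ± 0.24 in Ctrl (edgeR adjusted p = 0.042) and 0.87 ± 0.27 in mKO mice (adjusted p = 0.0265).

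Atp2a2 (ENSMUSG00000029467), the pump of slow fibres, had medians of 6340 CPM in AMB Ctrl, 5234 in AMB mKO, 5282 in HU Ctrl and 4194 in HU mKO mice. Its log2 change with unloading was −0.18 ± 0.41 in Ctrl (95% interval −1.02 to 0.66) and −0.08 ± 0.43 in mKO mice (−0.96 to 0.80). Without AMB mKO replicate 2 the intervals were −0.67 to 0.36 and −0.92 to 0.20, and neither change was called in either fit.

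The ratio of Atp2a1 to Atp2a2 cancels the depth of a library. Its median was 1.26 in AMB Ctrl mice (0.915 to 3.31), 2.09 in AMB mKO (1.26 to 4.55), 2.42 in HU Ctrl (1.64 to 5.86) and 3.43 in HU mKO mice (2.09 to 6.41). The highest AMB Ctrl value, 3.31, and the highest AMB mKO value, 4.55, belong to replicate 1 and to replicate 2. Ranges of neighbouring groups overlap throughout, and the ratios are a description with no test.

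**Figure D3:**
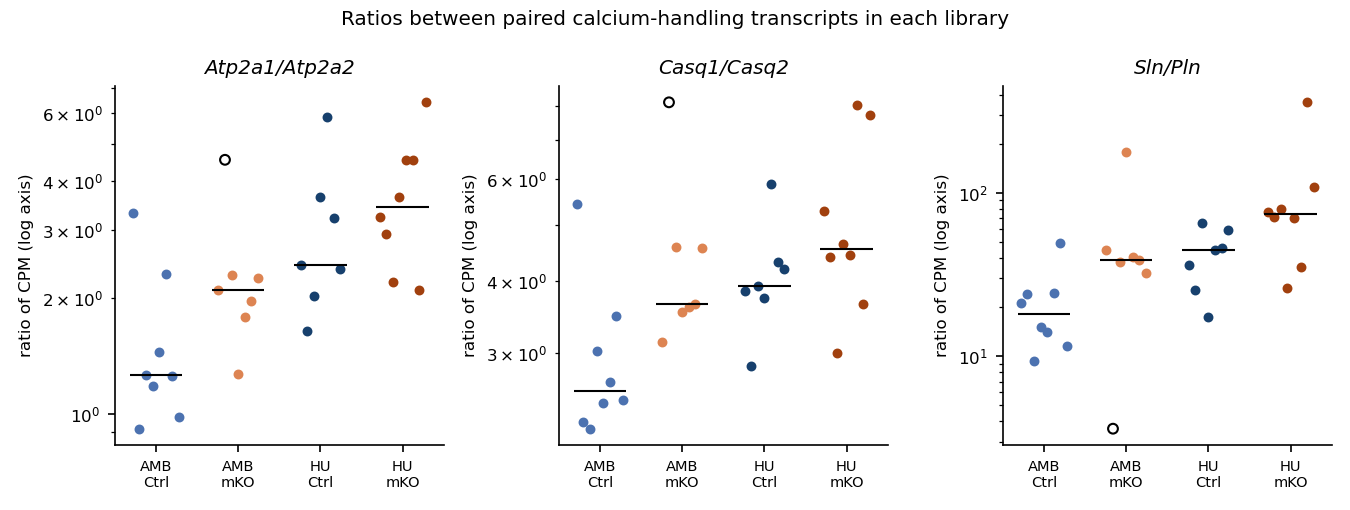
Ratio of CPM of Atp2a1 to Atp2a2, Casq1 to Casq2 and Sln to Pln in each library (log axis), by group; bars are medians and the open circle is AMB mKO replicate 2. The medians of all 3 ratios are lowest in AMB Ctrl mice and highest in HU mKO mice, with overlapping ranges.

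Phospholamban and sarcolipin restrain the pumps. Pln (ENSMUSG00000038583) was scarce, at 8 to 112 raw counts per library. It ran from 2.19 to 6.88 CPM in AMB Ctrl (median 3.82) and from 0.671 to 3.47 in HU Ctrl mice (median 1.73), and these ranges overlap. The log2 change was −1.15 ± 0.39 (edgeR adjusted p = 0.0523), and −1.10 ± 0.35 (adjusted p = 0.0313) without AMB mKO replicate 2, a fall of 2.14-fold. With a term for the title letter and all 30 libraries it was −1.21 ± 0.39 and called (adjusted p = 0.0361). In the model without that term it was called on leaving out any of 8 libraries (AMB Ctrl replicate 6 or 7, AMB mKO replicate 2, 4 or 7, HU Ctrl replicate 2, HU mKO replicate 6 or 7; adjusted p 0.0248 to 0.0474). Within letters a, b and c the difference was −1.10, −1.37 and −1.13.

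In mKO mice the median of Pln was 1.85 CPM in AMB (0.452 to 3.80) and 1.43 in HU (0.571 to 3.15), with a log2 change of −0.24 ± 0.40 (edgeR adjusted p = 0.74). The difference between the responses of the genotypes was 0.91 ± 0.57 (adjusted p = 1.0), so that it was not called. In AMB mice Pln was lower in mKO than in Ctrl mice by 1.10 ± 0.41 on the log2 scale, the largest genotype difference among the members, with an unadjusted p of 0.0119 and an adjusted p of 0.57; without AMB mKO replicate 2 it was lower by 0.83 ± 0.39.

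Pln shares its locus with Cep85l, which lies on the opposite strand with overlapping exons in the GENCODE M21 models. Whether the counting used strand is not given, so reads of this pair may not have been told apart. The Pln counts may hold reads of Cep85l or lack reads of Pln, and neither was tested. The low level of Pln and the ratio of Sln to Pln carry this limit. The noncoding Gm47644, at 32.9 CPM on average, also overlaps an exon of Pln on the opposite strand. Cep85l averaged 330.0 CPM against 2.44 for Pln, and it moved the other way: it rose by 1.12 ± 0.33 on the log2 scale in Ctrl (edgeR adjusted p = 0.0254) and by 1.52 ± 0.35 in mKO mice (adjusted p = 0.00718). Around group means in 29 libraries Pearson's r between them was 0.028, as a description. Of the other members, Atp2a1 overlaps Rabep2 on the opposite strand (9.75 against 13273 CPM on average), and the remaining overlaps are with noncoding genes.

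Sln (ENSMUSG00000042045) had medians of 71.7 CPM in AMB Ctrl (43.8 to 107), 91.8 in AMB mKO (1.63 to 197), 68.6 in HU Ctrl (30.1 to 103) and 107 in HU mKO mice (82.3 to 205). Unloading gave log2 changes of −0.10 ± 0.43 in Ctrl (edgeR adjusted p = 0.92) and 0.36 ± 0.47 in mKO mice (adjusted p = 0.66). In HU mice the mKO value was higher by 0.78 ± 0.44 (unadjusted p = 0.0894 and adjusted p = 1.0 in edgeR). Without AMB mKO replicate 2 it was higher by 0.74 ± 0.27 in HU and by 0.63 ± 0.29 in AMB mice, and in neither was it called (edgeR adjusted p = 1.0). The ratio of Sln to Pln had medians of 18.2 in AMB Ctrl, 38.6 in AMB mKO, 44.8 in HU Ctrl and 74.3 in HU mKO mice.

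Of the members, no gene of the release apparatus (Cacna1s, Ryr1 or Jph2) was called in the fit of all 30 libraries. Cacna1s (ENSMUSG00000026407), the pore-forming subunit of the voltage sensor, had medians of 925 CPM in AMB Ctrl (552 to 1353), 931 in AMB mKO (45.7 to 1367), 1791 in HU Ctrl (468 to 2101) and 1818 in HU mKO mice (766 to 3344). In both unloaded groups every library with letter c was below every library with letter a or b. The log2 change was 0.59 ± 0.43 in Ctrl (edgeR adjusted p = 0.40) and 1.08 ± 0.46 in mKO mice (adjusted p = 0.127). In a model with a term for the title letter, the mKO change was 1.27 ± 0.34 and called (adjusted p = 0.0137), and the Ctrl change was 0.42 ± 0.33 and not called. Without the 3 libraries richest in adipocyte transcripts (AMB mKO replicate 2, HU mKO replicates 2 and 3) the mKO change was 0.99 (adjusted p = 0.0396).

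Ryr1 (ENSMUSG00000030592), the release channel, had medians of 5099 CPM in AMB Ctrl (2699 to 9724), 4936 in AMB mKO (248 to 7302), 7498 in HU Ctrl (2256 to 10058) and 7012 in HU mKO mice (3268 to 11404). Its changes with unloading were 0.24 ± 0.44 and 0.61 ± 0.47, neither called (edgeR adjusted p = 0.78 and 0.41). Jph2 (ENSMUSG00000017817), a junctophilin that tethers the transverse tubule to the store, had medians of 308, 381, 298 and 244 CPM in the same order. Its changes were −0.39 ± 0.40 and −0.24 ± 0.42, neither called (adjusted p = 0.58 and 0.75). The split by title letter seen for Cacna1s held for Ryr1 and Jph2 too. In both unloaded groups every library with letter c was lower in each gene than every library with letter a or b.

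The mKO changes with unloading that were not called moved with AMB mKO replicate 2. Without it, Sln was at 0.041, Ryr1 at 0.34, Cacna1s at 0.80 and Atp2a1 at 0.69 on the log2 scale. Casq1 was at −0.53, Jph2 at −0.53 and Pln at −0.47.

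The comparison of mKO with Ctrl mice called none of the 10 members in AMB or in HU mice, where over all genes 3 of 16932 were called in each comparison, or 0.0177%. At an unadjusted p below 0.05, 1291 and 301 genes were counted, and 365 and 469 without AMB mKO replicate 2. DESeq2 called 9 genes in AMB mice and no member. The largest member values were −1.10 for Pln and 0.70 for Pvalb in AMB mice, and 0.78 for Sln and 0.48 for Pvalb in HU mice. With their 95% intervals these were −1.94 to −0.26, −0.11 to 1.51, −0.13 to 1.68 and −0.33 to 1.29, and each interval reaches beyond a 2-fold change (a log2 change of 1). The interaction of genotype and unloading called 0 of 16932 genes, or 0%, with 410 genes at an unadjusted p below 0.05, or 218 without AMB mKO replicate 2. DESeq2 and limma also called 0 genes for it. These spreads are between mice, since each library is labelled as a separate animal's soleus; the labels do not say whether muscles were pooled.

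Levels per kilobase of merged exon (GENCODE M21 models on GRCm38, not the build of the counts) allow the members to be ordered. In AMB Ctrl mice Atp2a1 led at 2649 ± 920 CPM per kb (SD, n = 8), above Atp2a2 at 1040 ± 321. Casq1 (330.0 ± 104), Ryr1 (257 ± 106), Pvalb (222 ± 238) and Cacna1s (146 ± 41.8) followed, with each neighbouring difference within the larger of the pair's SDs. Without AMB Ctrl replicate 1 the Pvalb level was 140.0 ± 65.0 (SD, n = 7), next to Cacna1s. Jph2 (81.8 ± 30.7), Casq2 (80.1 ± 18) and Sln (55.8 ± 18.3) were lower, and Pln was lowest at 1.49 ± 0.67. In HU mKO mice Pvalb, at 817 ± 372, stood beside Atp2a2 at 794 ± 317, and Casq2, at 38.7 ± 11.0, was below every member other than Pln.

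The relation of each member to the slow myosin Myh7 was examined across libraries. Correlations were taken on log2 CPM after subtracting each group's mean, for 10 members with Myh7 and 10 with the fast myosin Myh4, and adjusted over these 20. Means of the title letters were not subtracted, so differences between letters remain in r, in rho and in their permutation p-values. Over 29 libraries, without AMB mKO replicate 2, Atp2a2 had a Pearson r of 0.94 and a Spearman rho of 0.95 with Myh7. Casq2 had 0.85 and 0.82; all 4 had an adjusted permutation p of 6.67e-05, from an unadjusted p of 1e-05, the smallest that 100000 resamples can give. Jph2 (r = 0.65, rho = 0.71), Ryr1 (0.65, 0.73) and Cacna1s (0.60, 0.66) were also past the threshold, with adjusted permutation p of 0.00085, 0.00172 and 0.0053 for r. Without the 2 libraries farthest from the median of Myh7, AMB mKO replicates 2 and 4, r was 0.95 for Atp2a2, 0.89 for Casq2 and 0.67 to 0.69 for the other 3. Atp2a1 (r = 0.44), Casq1 (0.44) and Sln (0.32) passed the threshold for r only with AMB mKO replicate 2 (0.78, 0.85 and 0.87 over all 30), so those r values rest on it. By rho, Atp2a1 (0.505) and Casq1 (0.511) passed without that library, each with an adjusted permutation p of 0.0256. Sln did not (rho = 0.266, adjusted permutation p = 0.296).

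Without AMB mKO replicate 2, Pln, known from slow fibres, had r = −0.29 with Myh7 (adjusted permutation p = 0.24). Its rho was −0.29 (adjusted permutation p = 0.255). With that library r was 0.32. Pvalb had r of −0.25 without it and 0.29 with it. For Myh4 no r is given, since libraries fell into separate clusters: in AMB Ctrl mice 6 libraries were between 13.8 and 28.6 CPM, with replicates 1 and 8 at 4658 and 1147. Pvalb was 825 and 262 CPM in those and 59.2 to 191 in the other 6. Shared fibre content, shared library composition and the title letter enter every such relation, and their part was not tested. In AMB Ctrl mice, letter c libraries had 5741 to 11011 CPM of Myh7 and 2699 to 4742 of Ryr1. Those with letter a or b had 13122 to 18091 and 4879 to 9724. In both unloaded groups the Myh7 ranges of letter c and of the other letters overlapped. The permutation within groups takes libraries of different letters as exchangeable.

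**Figure D4:**
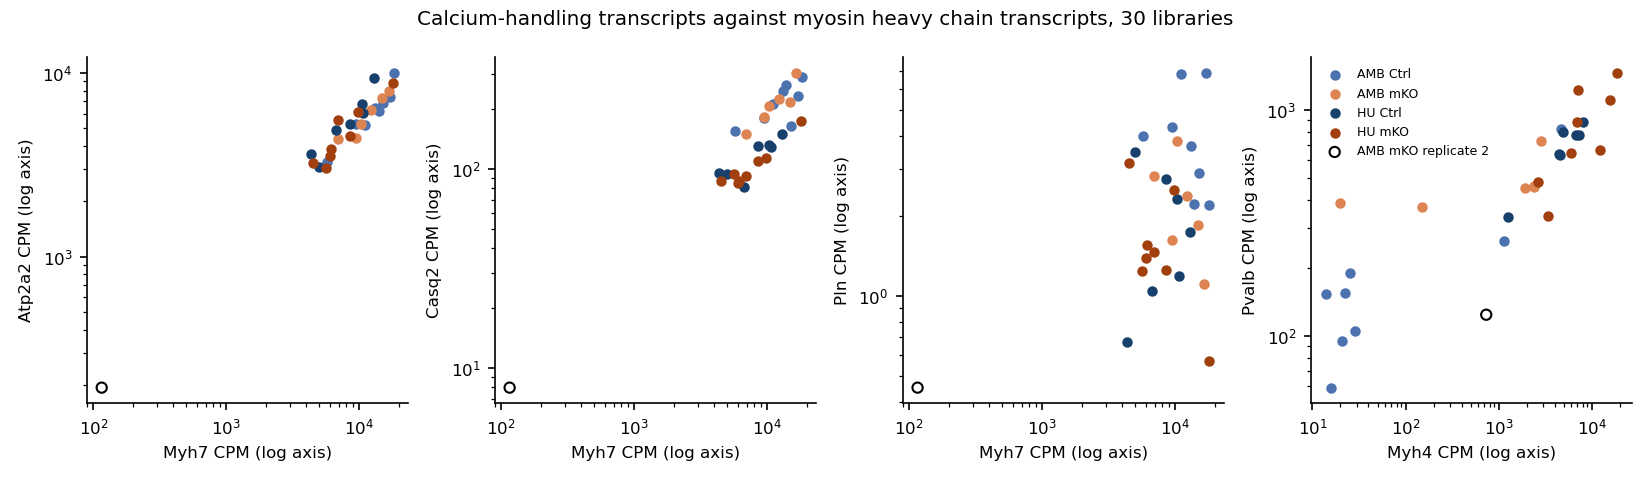
CPM of Atp2a2, Casq2 and Pln against Myh7, and of Pvalb against Myh4, in the 30 libraries (log axes), coloured by group, with AMB mKO replicate 2 open. Atp2a2 follows Myh7 closely, in Casq2 most HU libraries lie below the AMB libraries other than the open circle, and Pln shows no clear course.

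By the same measure over 29 libraries and 12370 genes, the transcripts nearest to each member are a description of likeness only. Atp2a2 was nearest to Myh7 (r = 0.94), the slow troponin T Tnnt1 (0.91) and Prob1 (0.89), and Casq2 to Raly (0.89), Myh7 (0.85) and Tnnt1 (0.84). Casq1 was nearest to Pgm1, Pgk1 and Pgam2, enzymes of glycogen and glucose breakdown (0.90 to 0.92), and Atp2a1 to Pygm, muscle glycogen phosphorylase (0.98), Tor1aip1 and Ipo13. Pvalb was nearest to Actn3, the fast-fibre actinin (0.90), Atp6v1g1 and Mybpc2, the fast myosin-binding protein C (both 0.79). Sln was nearest to Tppp3, the slow and cardiac troponin C Tnnc1 and the chaperone Hspa5 (0.71 to 0.74). The highest values of Ryr1 (Ube3b, Sptb, Alkbh5), Cacna1s (Eif4ebp2, Wnk2, Alkbh5) and Jph2 (Dennd4b, Podxl2) were 0.96 to 0.98, and those of Pln (Zzz3, Tmem88b, Rbm41) were 0.66 to 0.68. Among the members, Ryr1 and Cacna1s were most alike (0.96), with Atp2a1 and Cacna1s (0.96) and Ryr1 and Jph2 (0.94) next, and Pln was negative with 7 of the other 9, down to −0.43 with Jph2.

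Fibre-type genes moved in the same comparisons. Myh1, the myosin of type IIX fibres, rose 3.68-fold in Ctrl and 3.45-fold in mKO mice with unloading (edgeR adjusted p = 0.0214 and 0.0403), and Myh2, of type IIA fibres, fell 6.24-fold and 5.58-fold (adjusted p = 0.00486 and 0.00829). Of 7 slow fibre markers 0 were called in either genotype with all libraries; without AMB mKO replicate 2, 3 were called lower in Ctrl and 4 in mKO mice. Of 9 fast fibre markers, 2 were higher and 1 lower in each genotype. Over all genes, unloading called 11.1% in Ctrl and 10.1% in mKO mice, and 15.7% and 13.5% without AMB mKO replicate 2. The marker lists are short, so 1 called marker is not far from these shares. Among other cells, 2 of 5 endothelial and 3 of 5 smooth muscle and pericyte markers were lower in HU Ctrl mice, against 1 and 0 in HU mKO mice. The summed smooth muscle and pericyte markers had medians of 570 CPM in AMB Ctrl and 713 in HU Ctrl mice, the opposite direction to the 3 called markers. Of 6 tenocyte markers 1 was lower in each genotype, and 0 of 6 adipocyte, 0 of 6 macrophage, 0 of 5 fibro-adipogenic and 0 of 6 Schwann cell markers were called in either. The summed adipocyte markers ran from 4.12 to 539 CPM in Ctrl mice and from 26.9 to 7709 in mKO mice. The 7709 was AMB mKO replicate 2, and without it the highest sums were 1242 in AMB mKO and 1657 in HU mKO mice. Group medians were 148 CPM in AMB Ctrl, 135 in AMB mKO, 179 in HU Ctrl and 177 in HU mKO mice. None of these markers was at 0 in every library, and their part in the changes above was not tested.

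Of 60 tested genes in 5 further calcium lists, 4 or 6.67% were called after unloading in Ctrl and 9 or 15.0% in mKO mice, beside 11.1% and 10.1% of all genes. In the fit that left out AMB mKO replicate 2, 12 or 20.0% were called in each genotype, beside 15.7% and 13.5%. Of 19 tested triad and voltage sensor partners, 1 was lower in Ctrl mice, and 1 was higher and 1 lower in mKO mice. Asph, the locus of junctin and junctate, fell in both (−0.57 ± 0.13, edgeR adjusted p = 0.00601, and −0.43 ± 0.14, adjusted p = 0.0433), and in mKO mice the call was lost without AMB mKO replicate 2 (−0.39 ± 0.14, adjusted p = 0.0639). Cacng1, the gamma subunit of the voltage sensor, rose in mKO mice from a median of 67.4 to 105 CPM (1.07 ± 0.31, adjusted p = 0.0277). Without AMB mKO replicate 2 it rose in both genotypes (0.83 ± 0.19, adjusted p = 0.00337, and 0.82 ± 0.21, adjusted p = 0.00941). Ryr3, another release channel, had the largest values of the list, −1.18 ± 0.50 in Ctrl (adjusted p = 0.13) and −1.20 ± 0.53 in mKO mice (adjusted p = 0.14), and fell in mKO mice without that library (−1.52 ± 0.43, adjusted p = 0.0178).

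Of 10 tested pump regulators and proteins of the store (of 13 listed), 0 were called in Ctrl mice; in mKO mice 1 was higher and 1 lower. Mrln, the pump-inhibiting micropeptide myoregulin, rose (0.99 ± 0.30, edgeR adjusted p = 0.031) from a median of 3.94 to 6.85 CPM, and in Ctrl mice its value was 0.63 ± 0.28 (adjusted p = 0.15). Calr, the calcium-binding chaperone calreticulin, fell in mKO mice (−0.52 ± 0.13, adjusted p = 0.00977).

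Of 6 tested cytosolic buffers and sensors, S100a1, a calcium sensor that acts on the release channel and pump, fell in both genotypes. It went from a median of 81.0 CPM in AMB Ctrl to 45.4 in HU Ctrl mice (−0.89 ± 0.15, edgeR adjusted p = 0.000513) and from 72.3 to 37.8 in mKO mice (−0.69 ± 0.16, adjusted p = 0.0064). Calm2, a calmodulin gene, rose in mKO mice (0.56 ± 0.16, adjusted p = 0.0296).

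Of 9 genes of mitochondrial calcium uptake, Micu3, a regulator of the uniporter, rose in both genotypes. Its median was 6.57 CPM in AMB Ctrl (5.58 to 8.64) and 12.6 in HU Ctrl mice (8.30 to 14.1), and 7.58 and 12.5 in mKO mice. The HU mKO range, 11.2 to 14.4, lay above the AMB mKO range, 5.62 to 9.50, and in Ctrl mice the ranges overlapped narrowly. The log2 changes were 0.79 ± 0.13 (edgeR adjusted p = 0.000365) and 0.78 ± 0.13 (adjusted p = 0.000832). Without AMB mKO replicate 2, Micu2, Smdt1 and Letm1 fell in Ctrl mice and Micu2 in mKO mice. Micu2 and Smdt1 encode parts of the uniporter complex.

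Of 16 genes of calcium entry and export at the cell membrane, Orai2 fell in Ctrl mice (−0.79 ± 0.24, edgeR adjusted p = 0.0285) and Orai3 in mKO mice (−0.46 ± 0.12, adjusted p = 0.0148); both encode calcium entry channels. Slc8a1, a sodium-calcium exchanger, rose in mKO mice (0.53 ± 0.17, adjusted p = 0.0404). Slc8a3, its skeletal muscle relative, had the largest values of the list, 0.89 ± 0.34 in Ctrl (adjusted p = 0.0926) and 0.88 ± 0.36 in mKO mice (adjusted p = 0.11), and rose in Ctrl mice without AMB mKO replicate 2 (0.91 ± 0.24, adjusted p = 0.00912). No call in one genotype and not in the other was shown to differ between them, since the interaction called no gene.

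The genotype comparisons called none of these 60 genes in AMB or HU mice. The largest values in AMB mice were 0.90 ± 0.33 for Cib2 (edgeR adjusted p = 0.57), 0.61 ± 0.28 for Atp2b4, 0.46 ± 0.25 for Slc8b1, −0.36 ± 0.29 for Mrln and −0.24 ± 0.32 for Stac3. These values moved with AMB mKO replicate 2: without it they were 0.45 for Cib2, 0.028 for Atp2b4, −0.018 for Slc8b1, −0.16 for Mrln and 0.035 for Stac3. In HU mice they were 0.46 for Cib2, 0.34 for Cacnb1, 0.30 for Atp2b4, −0.29 for Selenon and −0.24 for Mcub.

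**Figure D5:**
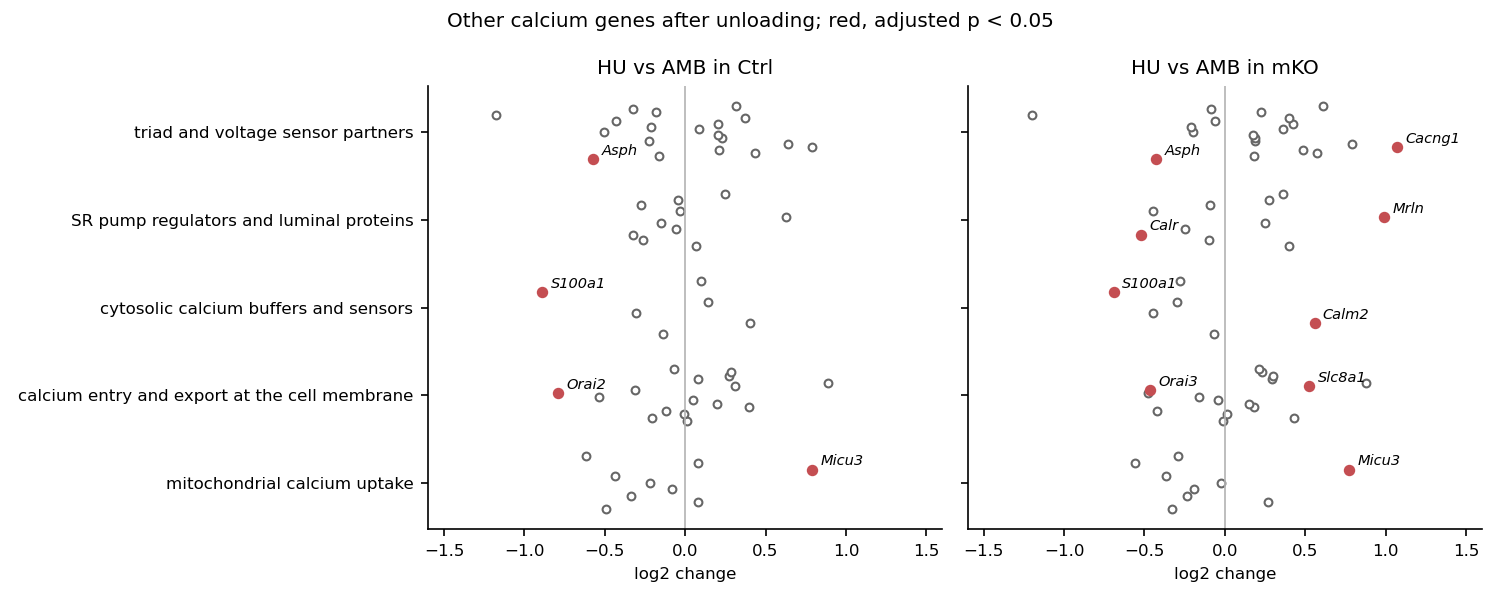
Log2 change with unloading of the tested genes in 5 lists of calcium genes other than the members, in Ctrl (left) and mKO mice (right); each point is a gene, and red points with names had an adjusted p below 0.05. S100a1 and Asph are lower and Micu3 is higher in both panels.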

How the data were processed

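The authors deposited a table of raw counts without normalisation, in which each of 30 columns is a mouse and each row an Ensembl gene. Per the submitters' processing notes, the tools were STAR 2.7.9a, featureCounts 1.6.3, cutadapt 1.16 and DESeq2 1.34.0, with the builds GRCm39 and mm39. The sources used here do not say which annotation release, strandedness option or filter was applied. Per the labels' protocols, the libraries were directional and from total RNA. Other protocol text there describes samples that are not mouse soleus and was not used.

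Each column was tied to its mouse through the sample title. Library totals were 12083415 to 20895263 counts. TMM scaling, filterByExpr and a robust quasi-likelihood fit in edgeR 4.0.16 (R 4.3.3) were run on all 30 libraries, with group and sex as terms, and p-values were adjusted by Benjamini-Hochberg across 16932 genes (threshold 0.05). Values after ± are SE beside a log2 change and SD beside a mean. The script was tested on simulated data. Alternatives were DESeq2 1.42.0, limma 3.58.1, other size factors and filters, other covariates and left-out libraries. Xist and Ddx3y fitted the labelled sex in 30 of 30 libraries, and no pair of libraries in a group was as alike as counting error alone would make a duplicate.

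The members, the 5 calcium gene lists and the marker lists were chosen with earlier results of these data known. Named are all members, and for each list and comparison up to 3 called genes with the smallest p and the gene with the largest change, with myosin, AMPK and Adipoq transcripts; for each member, the 3 genes with the highest r over 29 libraries, of which 1 for Jph2 is not reported here. Genes called only without AMB mKO replicate 2, Cep85l and Rabep2 were named after their values were seen. Symbols, taken from a reference table by Ensembl identifier, were found for 52073 of 56980 genes; 10 of 13 genes of the list of pump regulators were matched. RefSeq promoters were found for 8 of the 10 members.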

Additional observations from a re-analysis of the deposited data

Results flagged for a closer look

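In 4 of the 40 combinations of member and group, 1 library lay far from the rest by Dixon's test at the 95% level, which flags about 1 in 20 by chance. Casq1 was at 64.6 CPM in AMB mKO replicate 2, against 658 to 1082 in the other 6 mice. Pvalb was at 825 CPM in AMB Ctrl replicate 1, against 59.2 to 262 in the other 7. HU mKO replicate 7 was the highest of its group in Casq2, at 176 CPM, and in Sln, at 205 CPM.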

How the results depend on the processing

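No paired analysis was possible because the replicate numbers were given in accession order and pair no mice. Leaving out each of the 30 libraries in turn gave 1 member higher throughout and 0 to 2 lower with unloading in Ctrl mice, and 0 to 1 higher and 0 to 1 lower in mKO mice; over all genes these omissions gave 1264 to 2685 and 954 to 2302 calls, and 2 to 5 for genotype in AMB and 2 to 3 in HU mice. With unloading in Ctrl mice, 2 members were called lower with only the compared groups in the model, with DESeq2, with limma and without the 3 adipocyte-rich libraries, and 1 with median-of-ratios size factors and with the title letter; limma called 3 higher. In mKO mice 0 members were called higher without the low-count filter, without sex, with only the compared groups and with limma, and 3 with the title letter; without the 3 adipocyte-rich libraries the 1 called higher was Cacna1s, not Pvalb; 1 was called lower with limma and without the 3 adipocyte-rich libraries. An alternative chosen after seeing the data, the title letter with AMB mKO replicate 2 left out, called 2 higher (Atp2a1, Pvalb) and 3 lower (Casq1, Casq2, Pln) in Ctrl mice, and 3 higher (Atp2a1, Pvalb, Cacna1s) and 1 lower (Casq2) in mKO mice, with 3355 genes in Ctrl mice. Over all genes, unloading in Ctrl mice gave 1225 calls with no low-count filter, 3098 with only the compared groups and 4257 with limma; in mKO mice these were 987 with no filter, 608 with only the compared groups and 2591 with the title letter. Genotype in AMB mice gave 1 call with only the compared groups and 9 with DESeq2. The cause of these differences was not tested.

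Leaving out 1 library in turn turned the sign of 17 of the 50 member values, and 0 of these 17 were called with any library left out. Besides AMB mKO replicate 2, the sign turned for unloading in mKO mice for Atp2a2 (range −0.36 to 0.087) and in Ctrl mice for Sln (−0.27 to 0.031), genotype in HU mice for Atp2a1 (−0.031 to 0.28), Pln (−0.41 to 0.094), Ryr1 (−0.023 to 0.29) and Jph2 (−0.015 to 0.25), and genotype in AMB mice for Atp2a1 (−0.29 to 0.26) and Casq1 (−0.079 to 0.31). The other reversals below were also not called in either fit. For the genotype difference in AMB mice these were, without AMB mKO replicate 2, Casq2 at 0.019, Ryr1 at 0.037, Cacna1s at 0.15 and Jph2 at 0.27; without the 3 adipocyte-rich libraries, the same 4 at 0.025, 0.055, 0.17 and 0.28; with limma, Ryr1 at 0.10, Cacna1s at 0.16 and Jph2 at 0.27; without sex, Jph2 at 0.089; with the title letter, Atp2a1 at −0.40 and Casq1 at −0.30; with only the compared groups, Atp2a1 at −0.053 and Casq1 at −0.21; and with the letter and replicate 2 left out, Atp2a1 at −0.066. In HU mice Pln was at 0.097 with limma. For unloading in mKO mice, Pln was at 0.033 with only the compared groups and Atp2a2 at 0.14 with the title letter. For the interaction, the values with limma were −0.31 for Atp2a1, −0.14 for Atp2a2, −0.30 for Casq1, −0.12 for Casq2, −0.021 for Ryr1 and −0.23 for Jph2; without AMB mKO replicate 2 they were −0.15 for Atp2a1, −0.21 for Atp2a2, −0.093 for Casq1, −0.18 for Casq2 and −0.18 for Jph2. Without the 3 adipocyte-rich libraries they were −0.082 for Atp2a2, −0.11 for Casq2 and −0.024 for Jph2; without sex −0.027 for Jph2; and with the letter and replicate 2 left out −0.035 for Atp2a2 and −0.073 for Casq2. The correlations of Pln and Pvalb with Myh7 went to −0.29 and −0.25 without AMB mKO replicate 2.

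Depth was lowest for Pln, at 8 to 112 raw counts per library, and the lowest raw count of any other member was 36, for Sln.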
